A study of Danio rerio with 10 samples.

Results

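*mcamb* and *s1pr1* encode proteins of the cell surface, and both transcripts were higher in zebrafish somite progenitors carrying an activated *spadetail* morpholino. They were selected on their fold change between the groups compared here, and found by matching RefSeq records to the 2 gene symbols. They make up 2 of the 14720 records in the count table: *mcamb* is record NM_001012367 and *s1pr1* is record NM_131691. In the spt_cMO group, embryos of the AB wild-type strain were injected at early cleavage with caged fluorescein-dextran, a tracer, and a caged morpholino against *spadetail* (the older name of *tbx16*, which encodes a T-box factor needed for trunk mesoderm). Control embryos of the same strain received the caged tracer and no morpholino, so what follows from loss of *spadetail* and what follows from carrying any morpholino cannot be told apart. In both groups light of 360 nm, passed through a 100 µm diaphragm, uncaged the reagents in ventral somite progenitors 6 hours after fertilization. The embryos were taken apart at 9 hours, near the end of gastrulation, and the cells that fluoresced were collected by flow cytometry. Each group held 5 libraries, called biological replicates 1 to 5 in the labels; the number of embryos behind each library is not given in the sources used here. Transcripts were counted by CEL-seq, a method that sequences only the 3′ end of a transcript, so that counts do not grow with its length.

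MCAM, the melanoma cell adhesion molecule, is a single-pass membrane glycoprotein of the immunoglobulin superfamily that binds neighbouring cells and laminins, and in mammals it is best known from endothelium, smooth muscle and melanoma. *mcamb* is a zebrafish copy of its gene and has been studied there mainly in vessel formation. S1PR1 is a G protein-coupled receptor for the lipid sphingosine-1-phosphate (S1P), which kinases make from sphingosine, transporters of the Spns2 type export and a lyase breaks down. Through inhibitory G proteins and Rac the receptor steers cell migration and cell-cell junctions, in mammals above all in lymphocytes and vessels, while in zebrafish S1P made in the yolk syncytial layer guides heart precursors through the related receptor gene *s1pr2*.

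Libraries held between 2036973 and 9374914 counts in spt_cMO and between 3365785 and 7968446 in control, so that 3 counts, the floor used here, were worth 0.32 to 1.47 CPM (counts scaled to a common library size by TMM). On the first principal component of all tested records, which held 19.0% of the variance, spt_cMO replicate 2 stood apart with a loading of -0.83, and loadings of the remaining 9 libraries ran from -0.17 to 0.34. Without that library the log2 fold changes described next were 1.83 for *mcamb* and 1.41 for *s1pr1*. The targeted *tbx16* was read at 394 to 652 CPM in spt_cMO, against 321 to 433 CPM in control. That difference, a log2 fold change of 0.45 (SE 0.13), had an adjusted p of 0.0897 in the quasi-likelihood test of edgeR and so did not pass. It passed in edgeR when replicate numbers were entered as a block (log2 fold change 0.43, adjusted p = 0.0172) and without spt_cMO replicate 4 (log2 fold change 0.54, adjusted p = 0.0239), and also by DESeq2 (adjusted p = 0.0451) and with no filter on low counts (adjusted p = 0.0414). In the remaining 13 of 17 alternative settings *tbx16* did not pass (edgeR, adjusted p up to 0.247). The likelihood ratio test deposited by the authors called it (log2 fold change 0.44, adjusted p = 0.00265), at place 131 of 6923 listed records by p. Morpholinos that block translation can leave the transcript in place, so the level of *tbx16* is a weak check of the labels. Of 21 presomitic and paraxial marker records, which define the labelled cells, 18 passed the filter on low counts. *mespba* and *mespbb* were near 0. The list had a summed level of 3140 to 4780 CPM in spt_cMO and 6970 to 9110 CPM in control, much of it *msgn1*, a regulator of presomitic mesoderm, at a mean of 2029 CPM in spt_cMO and 5838 CPM in control.

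The adhesion gene *mcamb* was read with 494, 92, 94, 181 and 108 counts in spt_cMO replicates 1 to 5, which is 52.4, 45.0, 34.7, 47.2 and 43.4 CPM. In control replicates 1 to 5 it had 53, 104, 28, 77 and 84 counts, or 13.4, 13.0, 8.32, 16.4 and 11.6 CPM. Every spt_cMO library lay above every control library, with a wide gap between the groups. The lowest counting interval of an spt_cMO library began at 28.0 CPM, in replicate 3, and the highest of a control library ended at 20.5 CPM, in replicate 4 (95% exact Poisson intervals, which cover counting error only). The mean was 44.6 CPM ± 6.48 in spt_cMO and 12.5 CPM ± 2.93 in control (SD, n = 5 each), and the fitted log2 fold change was 1.83 (SE 0.16), or 3.55-fold. Because the gene was chosen for this difference, these values are a description and carry no test.

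The receptor gene *s1pr1* was read with 435, 97, 130, 236 and 131 counts in spt_cMO replicates 1 to 5, which is 46.2, 47.5, 48.0, 61.6 and 52.7 CPM. In control replicates 1 to 5 it had 77, 162, 76, 80 and 135 counts, or 19.4, 20.3, 22.6, 17.0 and 18.7 CPM. Again no library of one group reached the range of the other. The lowest spt_cMO interval began at 38.5 CPM, in replicate 2, and the highest control interval ended at 28.3 CPM, in replicate 3. The mean was 51.2 CPM ± 6.32 in spt_cMO and 19.6 CPM ± 2.05 in control (SD, n = 5 each), with a log2 fold change of 1.39 (SE 0.12), or 2.62-fold, also given without a test. These are bulk samples of sorted cells, in which more cells that express a gene and more RNA per cell cannot be told apart.

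**Figure D1:**
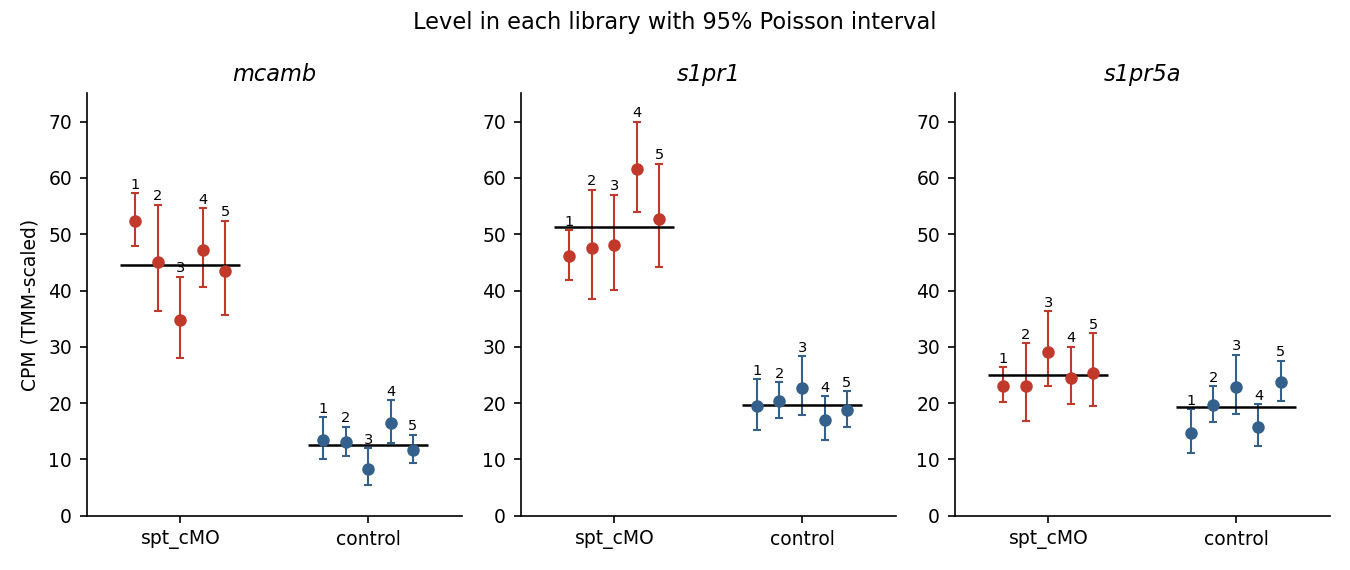
TMM-scaled CPM of *mcamb*, *s1pr1* and the related receptor gene *s1pr5a* (vertical axis) in the 5 spt_cMO and 5 control libraries, numbered by replicate; bars are 95% Poisson intervals and horizontal lines group means. The intervals of *mcamb* and *s1pr1* do not meet between groups, while *s1pr5a* runs from 23.0 to 29.1 CPM in spt_cMO and from 14.6 to 23.7 CPM in control.

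Both genes were of middling abundance. In spt_cMO *mcamb* stood above 62.6% of the 6570 tested records and *s1pr1* above 65.7%, and in control they stood above 33.4% and 43.9%. By fold change *mcamb* was 6th and *s1pr1* 14th from the top of all tested records. Across all tested records, 0.807% were called higher in spt_cMO and 0.974% lower (adjusted p of at most 0.05), 1.78% in all. Non-overlapping groups were found in 3.06% of those records: every spt_cMO library lay above every control library in 1.43% and below it in 1.63%. Both genes belong to the higher records by their choice, and nothing is read from it. In the authors' deposited table, made from the same libraries, *mcamb* had a log2 fold change of 1.84 and stood at place 2 of 6923 listed records by p, and *s1pr1* had 1.39 and stood at place 10.

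**Figure D2:**
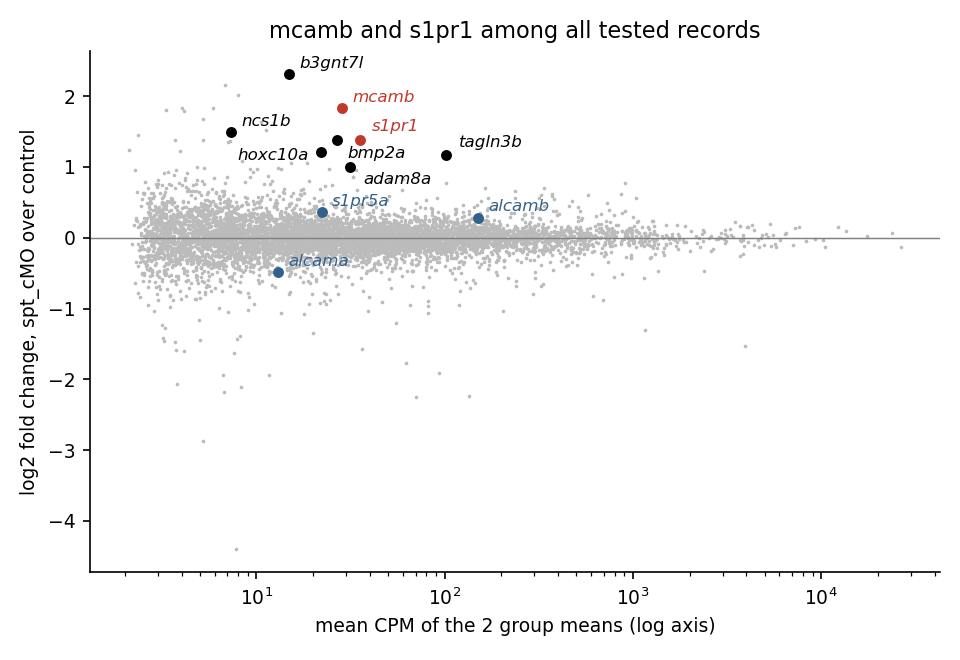
Log2 fold change, spt_cMO over control (vertical axis), against mean CPM on a log axis for the 6570 tested records in grey; *mcamb* and *s1pr1* are red, the records with the closest profiles black and 3 related genes blue. *mcamb* at 1.83 and *s1pr1* at 1.39 lie at the upper edge, and *s1pr5a*, *alcamb* and *alcama* between -0.49 and 0.36.

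The spread between replicates of one group is described here without a test. A small spread helps a group difference to stand out, so the choice of the genes may have favoured it. *mcamb* had a coefficient of variation of 14.5% in spt_cMO and 23.4% in control, where counting alone would give 8.3% and 12.7%. *s1pr1* had 12.3% in spt_cMO, where counting alone would give 8.05%, and 10.5% in control, where it would give 10.3%. The control libraries thus differed in *s1pr1* by about as much as their counts allow (chi-square per degree of freedom 0.904), whereas the other 3 sets of libraries differed by more (2.74 to 3.85). The biological coefficient of variation estimated by edgeR was 15.7% for *mcamb* and 13.1% for *s1pr1*, beside a median of 15.4% over all tested records.

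Within a group the order of the libraries differed between the genes. In spt_cMO, replicate 1 had the highest *mcamb* and the lowest *s1pr1*, and replicate 4 had the highest *s1pr1* and the second highest *mcamb*. In control replicate 4 had the highest *mcamb* and the lowest *s1pr1*, and replicate 3 the lowest *mcamb* and the highest *s1pr1*. On the log2 CPM scale both genes deviated to the same side of their group mean in 4 of 10 libraries, 2 in each group. In control replicate 3, for example, *mcamb* deviated by -0.54 and *s1pr1* by 0.21 from their group means. The spread of *s1pr1* in control was about what counting alone gives, so its order there cannot be told from counting error. In spt_cMO the counting intervals of *s1pr1* overlapped in replicates 1, 2 and 3 (41.9 to 50.7, 38.5 to 57.9 and 40.1 to 57.0 CPM). That of replicate 5 (44.1 to 62.5 CPM) overlapped every other one, and only those of replicates 1 and 4 stood apart. For *mcamb* in spt_cMO only the intervals of replicates 1 and 3 stood apart (47.9 to 57.3 and 28.0 to 42.4 CPM). Every other pair of spt_cMO libraries overlapped in these genes, so the order within such a pair is not settled either. The libraries fall into 2 separate clusters of 5, so no pooled correlation is given, and 5 libraries are too few for one within a group.

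Libraries of the same number were also set against each other, which restates the same values. The fold of spt_cMO over control in *mcamb* was 3.93, 3.46, 4.17, 2.88 and 3.74 for numbers 1 to 5, and in *s1pr1* it was 2.38, 2.34, 2.12, 3.62 and 2.82. Number 3 had the largest fold in *mcamb* and the smallest in *s1pr1*, and number 4 the reverse. Both genes were higher in spt_cMO in all 5 number-matched pairs. Any pairing of the libraries would give this, because the groups do not overlap in either gene.

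**Figure D3:**
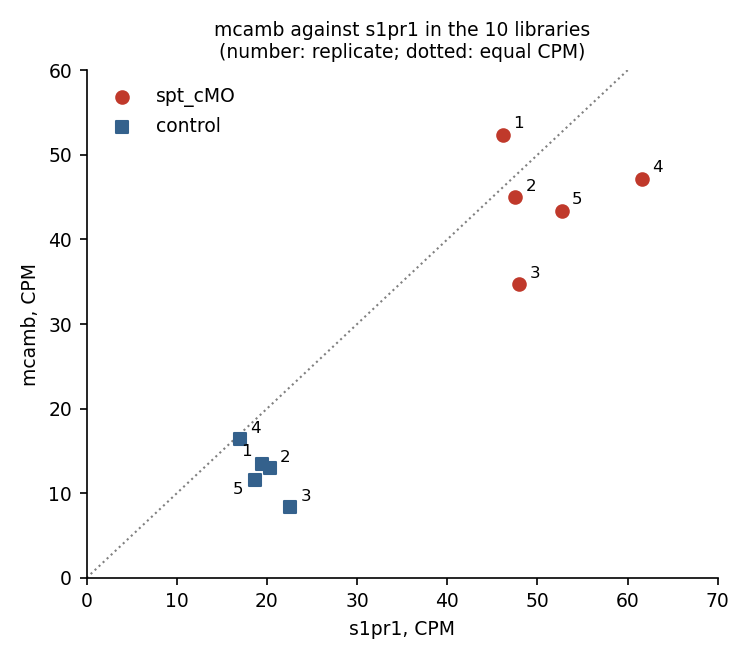
*mcamb* (vertical axis) against *s1pr1* (horizontal axis), both in TMM-scaled CPM, in each library; circles are spt_cMO, squares control, numbers are replicates and the dotted line marks equal CPM. The 5 spt_cMO libraries form one cloud at 34.7 CPM or more on both axes and the 5 control libraries another at 22.6 CPM or less.

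The ratio of the 2 counts within a library needs no scaling between libraries. Tag capture can differ between transcripts, so it is compared between libraries and not read as molecules of one gene per molecule of the other. *mcamb* had 1.14, 0.948, 0.723, 0.767 and 0.824 counts per *s1pr1* count in spt_cMO replicates 1 to 5, against 0.688, 0.642, 0.368, 0.963 and 0.622 in control. The mean was 0.88 ± 0.166 in spt_cMO and 0.657 ± 0.212 in control (SD, n = 5 each). Each of the 5 spt_cMO ratios exceeded the control mean, but only replicate 1 exceeded every control library. The mean log2 ratio was -0.20 in spt_cMO and -0.67 in control, a difference of 0.47, set beside an SD of 0.26 in spt_cMO and 0.50 in control. Without control replicate 3, whose 28 *mcamb* counts are the fewest, the difference was 0.28, and without control replicate 4 it was 0.62. No test of this difference is given because the same contrast chose both genes.

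Among the receptors for S1P, *s1pr1* and *s1pr5a* were the only ones of 6 analysed that were read well above the floor. *s1pr5a*, a receptor gene known in mammals from natural killer cells and oligodendrocytes, was read at 23.1, 23.0, 29.1, 24.5 and 25.3 CPM in spt_cMO replicates 1 to 5 and at 14.6, 19.7, 22.9, 15.7 and 23.7 CPM in control replicates 1 to 5. The groups overlapped: 3 spt_cMO libraries lay above every control library and 2 within the control range. Its mean was 25 CPM ± 2.5 in spt_cMO and 19.3 CPM ± 4.08 in control (SD, n = 5 each). Its log2 fold change was 0.36 (SE 0.15) and did not pass (edgeR, adjusted p = 0.425), which does not show that its level was equal. The remaining receptor genes *s1pr2*, *s1pr3a*, *s1pr4* and *s1pr5b* had together 12 counts in the 5 spt_cMO libraries and 11 in the 5 control libraries, and at most 6 in any library, so no difference could be detected at this depth. The receptor gene *s1pr3b* was not analysed here.

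The counts of *s1pr1* relative to *s1pr5a* separated the groups. There were 1.65 to 2.51 counts of *s1pr1* per count of *s1pr5a* in spt_cMO (mean 2.06 ± 0.308, SD, n = 5) and 0.789 to 1.33 in control (mean 1.04 ± 0.194). No spt_cMO library fell within the control range. The rise of *s1pr1* that chose the gene enters this ratio, so it is given without a test.

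Receptors for lysophosphatidic acid, another lipid signal, were listed together with those for S1P. With them the list of S1P receptors and relatives had 4 tested members besides *s1pr1*, of which none passed, beside 1.78% of all tested records called in either direction. *lpar6a* averaged 4.79 CPM ± 1.56 in spt_cMO and 2.66 CPM ± 1.22 in control (log2 fold change 0.96, SE 0.32, adjusted p = 0.212). *lpar1* had a log2 fold change of -0.26 (SE 0.14) and *lpar2a* one of 0.06 (SE 0.13). The last of these changed sign without spt_cMO replicate 5 or control replicate 4. The median of the 4 was 0.21, beside 0.001 over all tested records, and 2 of them, *s1pr5a* and *lpar6a*, had an unadjusted p under 0.05. DESeq2 called none. The share of all tested records under that unadjusted p is not given here. Counts of this kind, in this list and in those below, are therefore not read as an excess.

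Genes that make, export or break down S1P and its precursors did not pass either. Of 13 tested members 6 had a positive log2 fold change, the values lay between -0.62 and 0.47, and the median was -0.04. By edgeR none passed, beside 1.78% of all tested records called in either direction, and DESeq2 called none. In edgeR 2 had an unadjusted p under 0.05, *ugcg* and *cers5*, both lower. The lyase gene *sgpl1* averaged 3.82 CPM ± 1.26 in spt_cMO and 2.51 CPM ± 0.944 in control, with a log2 fold change of 0.47 (SE 0.35). *degs1*, which makes the last step to ceramide, was the most abundant of the list, at 76.4 CPM in spt_cMO and 78.9 CPM in control. The exporter gene *spns2* has 2 records, which had 4 and 0 counts over the spt_cMO libraries and 3 and 12 over the control libraries, the 12 all in control replicate 5, and neither was tested. The kinase genes *sphk1* and *sphk2* were not analysed here.

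In S1P receptor signalling 23 genes were tested, for signal transduction, receptor desensitisation, and known targets or regulators. None passed by edgeR or DESeq2, beside 1.78% of all tested records called by edgeR in either direction. The log2 fold changes ran from -0.55 to 0.41, with a median of -0.003 and 11 of 23 positive. An unadjusted p under 0.05 was reached by 3, *klf2a*, *arrb2a* and *arhgef2a*, named after their values were seen. *arhgef2a* came onto the list as *arhgef1a*, and *rhocb* as *rhoad*, through RefSeq synonyms, so their place on it rests on the name alone. *klf2a* encodes a zinc finger factor whose mammalian counterpart activates *S1PR1*. It was read at 86.8, 110.0, 102.0, 99.1 and 88.9 CPM in spt_cMO replicates 1 to 5, against 68, 88.4, 83.2, 60 and 64.5 CPM in control, and 4 of 5 spt_cMO libraries lay above every control library. Its log2 fold change of 0.41 (SE 0.12) did not pass (adjusted p = 0.116). It passed in edgeR with replicate numbers as a block (0.43, adjusted p = 0.0249) and without control replicate 2 (0.50, adjusted p = 0.046). In the other 15 of 17 alternative settings it did not pass (edgeR or DESeq2, adjusted p up to 0.3035). Its paralog *klf2b* had a log2 fold change of -0.24 (SE 0.20). *arrb2a*, an arrestin gene, averaged 67.2 CPM ± 20.2 in spt_cMO and 98.5 CPM ± 26.3 in control, with overlapping groups (log2 fold change -0.55, SE 0.22, adjusted p = 0.425). In the authors' deposited table both were called, *klf2a* with a log2 fold change of 0.43 (adjusted p = 0.0159) and *arrb2a* with -0.56 (adjusted p = 0.0222). They stood at places 169 and 181 of 6923 listed records by p, so that likelihood ratio test called more records than the 117 called here.

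**Figure D4:**
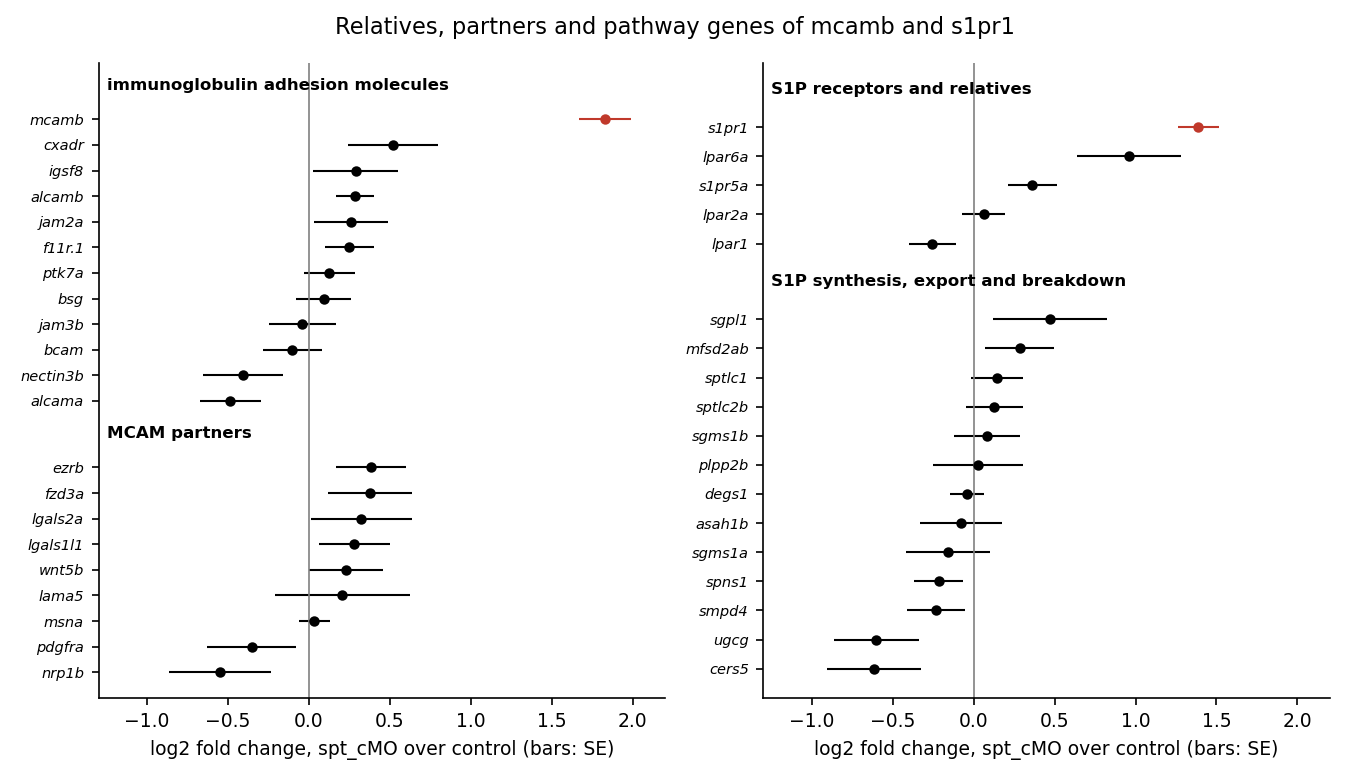
Log2 fold change, spt_cMO over control (horizontal axis), with SE, of the tested members of 4 lists: adhesion molecules and partners of MCAM on the left, S1P receptors with their relatives and S1P metabolism on the right. *mcamb* at 1.83 and *s1pr1* at 1.39, in red, lie to the right of every other gene drawn, of which *lpar6a* at 0.96 comes nearest.

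The list of adhesion molecules of the immunoglobulin superfamily, which does not hold every such gene, had 11 tested members besides *mcamb*. None passed by edgeR or DESeq2, beside 1.78% of all tested records called by edgeR in either direction. A positive log2 fold change was found in 7, and the median was 0.13 with a range of -0.49 to 0.52. The ALCAM genes, whose products share the domain layout of MCAM, reached an unadjusted p under 0.05 in opposite directions. *alcamb* was read at 149 to 185 CPM in spt_cMO and at 110 to 159 CPM in control (log2 fold change 0.28, SE 0.12, adjusted p = 0.399). *alcama* was read at 8.17 to 13.3 CPM in spt_cMO and at 11.1 to 18.7 CPM in control (log2 fold change -0.49, SE 0.19, adjusted p = 0.335). The groups overlapped in both. *kirrel3l*, of the same superfamily but not on the list, was found among the records called higher, at 20.8 CPM in spt_cMO and 9.65 CPM in control (log2 fold change 1.06, SE 0.23, adjusted p = 0.022). A further 21 records of the list stayed below the filter on low counts, and the paralog *mcama* was not analysed here.

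Proteins reported to bind MCAM in mammals include Wnt5a, VEGF and PDGF receptors, neuropilin, laminins, galectins and the ezrin-radixin-moesin linkers. Of 9 tested genes for such partners none passed by edgeR or DESeq2, beside 1.78% of all tested records called by edgeR in either direction. None had an unadjusted p under 0.05, and the log2 fold changes lay between -0.55 and 0.38. The median was 0.23, with 7 of 9 positive. The ligand gene *wnt5b* was read at 80.1, 61.7, 59.0, 98.4 and 46.7 CPM in spt_cMO replicates 1 to 5 and at 65.8, 57.2, 42.5, 89.0 and 44.4 CPM in control. The groups overlapped, while each spt_cMO library lay above the control library of its number. Its log2 fold change was 0.23 (SE 0.23), and with replicate numbers as a block 0.21 (SE 0.11), which did not pass in edgeR (adjusted p = 0.468).

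Most defining markers of endothelium and blood were at or near 0, and 3 of 30 records on that list were at 0 in every library. The list held 1 record whose libraries were all higher in spt_cMO, that of *flt1*, a VEGF receptor gene named after its values were seen: record NM_001257153 had 14, 16, 21, 10 and 14 counts in spt_cMO replicates 1 to 5 and 2, 4, 2, 6 and 7 counts in control. That is 1.49, 7.83, 7.75, 2.61 and 5.63 CPM in spt_cMO, against 0.504, 0.501, 0.594, 1.28 and 0.969 CPM in control, with no overlap. These counts were below the filter. In the edgeR fit with no filter on low counts the record was called higher (log2 fold change 2.49, SE 0.45, adjusted p = 0.00023). That fit called 75 of its 13008 records higher and 89 lower. Across all tested records 1.43% were higher without overlap and 1.63% lower, and on this list *cldn5a*, described below, was lower without overlap. The other *flt1* record had 7 counts in spt_cMO and 6 in control. The VEGF receptor gene *kdrl* had 2 counts over all 5 libraries of each group, and the endothelial cadherin gene *cdh5* had 2 counts in spt_cMO and 5 in control. *pecam1a* and *gata1a* had 2 counts each over all 10 libraries. Some further untested markers, named after their values were seen, had a higher mean in spt_cMO with overlapping groups. *lmo2* averaged 2.37 CPM in spt_cMO and 1.72 CPM in control, *fli1* 1.13 and 0.539 CPM, and *flt4* 0.863 and 0.39 CPM. *tal1* had a lower mean in spt_cMO (0.417 CPM, against 0.615 CPM in control), as had *kdr*, *cdh5* and *pecam1a*. *etsrp* (*etv2*), the early endothelial regulator, was measured at 3.18 to 13.3 CPM in spt_cMO and 5.11 to 15.2 CPM in control, with overlapping groups (log2 fold change -0.28, SE 0.42, adjusted p = 0.923). Of the 30 records 7 passed the filter and were tested, of which 1 fell and none was called higher (*klf2a*, above, is on this list too). Among all tested records 0.974% were called lower and 0.807% higher. An unadjusted p under 0.05 in edgeR was reached by 4, *klf2a* higher and *cldn5a*, *cldn5b* and *gata2a* lower. The likelihood ratio test deposited by the authors, on the same libraries, called the same 4 at an adjusted p of at most 0.05. The thresholds and the tests differ, so the counts are not like for like. The gene that fell, *cldn5a*, a tight junction gene, averaged 4.4 CPM ± 1.76 in spt_cMO and 11.3 CPM ± 1.90 in control (log2 fold change -1.43, SE 0.24, adjusted p = 0.00217). The list summed to 434 to 1070 CPM in spt_cMO and 686 to 1530 CPM in control, most of it *gata2a*, a GATA factor gene also active in ventral ectoderm, at 280 to 876 CPM in spt_cMO and 563 to 1350 CPM in control. The log2 fold change of *gata2a* was -0.88 (SE 0.36) and did not pass (edgeR, adjusted p = 0.481).

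Beside the 0.807% of all tested records called higher and the 0.974% called lower, members of the other marker lists passed in the presomitic and paraxial (9 of 18 tested, all lower), pronephric and lateral plate (1 of 8, lower), muscle (1 of 3, lower), notochord and axial (2 of 8, both higher) and neural (1 of 15, higher) lists. None passed among 5 endoderm, 14 epidermal, 3 yolk syncytial and 5 germ cell genes; by unadjusted p under 0.05 there was 1, the epidermal gene *tfap2a*. The notochord list summed to 465 to 551 CPM in spt_cMO and 380 to 442 CPM in control. Most of it was *tbxta*, at a mean of 438.7 CPM in spt_cMO and 338.3 CPM in control. The sum thus mostly follows this gene and is not read as a measure of notochord. The other gene of the list that passed was *shha*, at 6.23 CPM in spt_cMO and 1.81 CPM in control. The 6 tested members that did not pass include *noto*, at 6.27 CPM in spt_cMO and 4.28 CPM in control. *col8a1a*, not tested here, averaged 1.69 CPM in spt_cMO and 3.56 CPM in control and was called in the authors' deposited comparison. The neural list summed to 523 to 695 CPM in spt_cMO and 467 to 674 CPM in control. Its member that passed was *sox2*, at 76.7 CPM in spt_cMO and 43.1 CPM in control (log2 fold change 0.83, SE 0.11, edgeR adjusted p = 0.00019). The other 14 tested members did not pass. The part of these lists in the levels of *mcamb* and *s1pr1* was not tested.

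The profiles most like those of the 2 genes were sought among all tested records, as the smallest root mean square difference in log2 CPM over the 10 libraries after subtracting each record's mean. The measure includes the group difference by which *mcamb* and *s1pr1* were chosen, so the records found are described without a test. For *mcamb* the closest were *b3gnt7l* (0.402), related to enzymes that extend glycan chains, *ncs1b* (0.407), a neuronal calcium sensor gene, *s1pr1* itself (0.413), the growth factor gene *bmp2a* (0.432) and *tagln3b* (0.438), a gene of the actin-binding transgelin family. The median record differed from *mcamb* by 0.977. *s1pr1* was thus at place 3 of 6569 records.

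The difference of 0.413 between the genes is the same from either side, but more records lay close to *s1pr1*. For *s1pr1* the closest were *hoxc10a* (0.222), a homeobox gene of the posterior body, *tagln3b* (0.239), *ncs1b* (0.241), the metalloprotease gene *adam8a* (0.248) and *bmp2a* (0.287), beside 0.742 for the median record, and *mcamb* came 27th. *tagln3b*, *ncs1b* and *bmp2a* stood on both lists. *tagln3b* averaged 141 CPM ± 15.8 in spt_cMO and 62.4 CPM ± 5.89 in control, *ncs1b* 10.9 CPM ± 2.24 in spt_cMO and 3.82 CPM ± 0.608 in control, and *bmp2a* 39.1 CPM ± 4.39 in spt_cMO and 14.8 CPM ± 4.51 in control (SD, n = 5 each). In all 3 every spt_cMO library lay above every control library, as in 1.43% of all tested records. The search favours such records, because the groups do not overlap in *mcamb* or *s1pr1*.

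**Figure D5:**
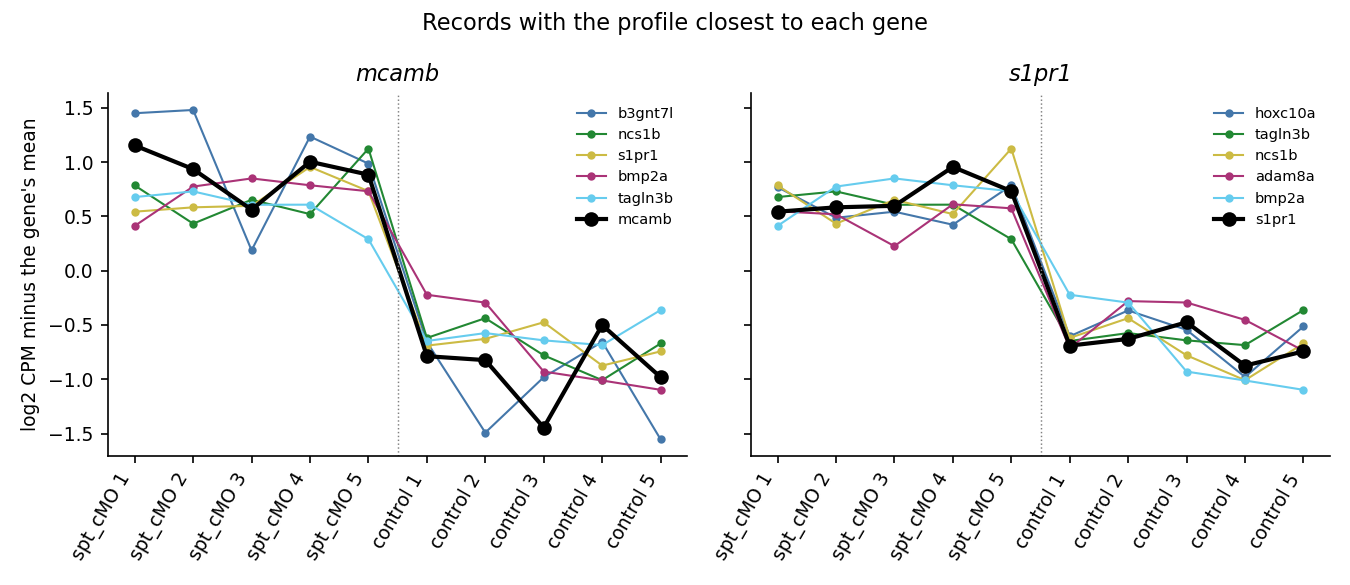
Log2 CPM minus the gene's own mean (vertical axis) in the 10 libraries for *mcamb* (left) and *s1pr1* (right), in black, and the 5 records closest to each; lines only join the points of one gene. The curves share the step between spt_cMO and control, and in *mcamb* control replicates 3 and 4 lie farther from each other than in *s1pr1*.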

How the data were processed

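The authors deposited raw counts per RefSeq record for 10 CEL-seq libraries. Per the series' design text, Galaxy and purpose-written CEL-seq scripts were used with the zebrafish build Zv8; the aligner, the counter and its use of strand are not given in the sources used here. A second table that the authors deposited, made with edgeR per the submitters' processing notes, compares the groups: for each record it lists log2 values (fold change and mean CPM), the score of a likelihood ratio test, and p-values before and after adjustment. Symbols and gene order, but no positions, came from RefSeq's GRCz12tu gene table, in which 13986 of 14720 records matched; the table also gives *s1pr1* as a synonym of *s1pr5a*, and current symbols were matched first. Coordinates are not given, since no Zv8 genome was used here.

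From these counts, in edgeR 4.0.16 (R 4.3.3), filterByExpr (minimum count 10, minimum total 15, minimum proportion 0.7) kept 6570 records, TMM scaled the libraries, and the groups were compared by the robust quasi-likelihood test, 2-sided, with Benjamini-Hochberg adjustment over all tested records at 0.05. The procedure was tested on simulated data. Standard errors come from the F statistic, log2 CPM uses a prior count of 2, and counting intervals (Python 3.11.15, scipy 1.17.1) cover counting error only. Same-numbered libraries deviated together from their group means (correlations of 0.135, 0.251, 0.119, 0.203 and 0.147 over 6570 records, all above the 0.1 that was set). The labels do not say what a number shares, so the main test used the group only. The replicate block was an alternative, and edgeR values given without mention of the block ignore the numbers.

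The members, the lists and the tests were chosen with earlier results of these data known. Genes were named by rule: both members, list genes that passed, paralogs and a fixed few S1P and endothelial genes with *tbx16* whatever their result, and the 5 closest profiles of each member; others are said to be chosen after their values were seen or serve as examples. Alternatives were size factors of DESeq2 1.42.0, library totals, other filters, the DESeq2 test, the replicate block, thinned libraries and each library left out.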

Additional observations from a re-analysis of the deposited data

Results flagged for a closer look

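Of 56 sets of 5 libraries examined, 1 held a library far from the others, where chance gives about 1 in 20: the metalloprotease gene *adam8a*, one of the closest profiles to *s1pr1*, was read at 34.7 CPM in spt_cMO replicate 3, with a gap to the next library of 0.737 of the group's range. *mcamb* and *s1pr1* had no such library in either group.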

How the results depend on the processing

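Over 17 alternative settings the log2 fold change of *mcamb* lay between 1.73 and 1.94 and that of *s1pr1* between 1.31 and 1.45. With libraries thinned to the smallest total they were 1.74 and 1.45. The difference in their log2 ratio ranged from 0.28 to 0.62 without single libraries, and both genes deviated to the same side in 3 to 5 libraries.

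With the replicate block 181 records were called, 88 of them higher, against 117 and 53 without it; DESeq2 called 83 higher. In S1P receptor signalling 1 gene, *klf2a*, was called higher with the block, and 0 to 1 without single libraries. The other 9 counts of the 5 lists on adhesion, partners and S1P stayed at 0 in every setting. Among the single genes recomputed with the block, the calls of *klf2a* and *tbx16* changed. Signs turned without single libraries in the log2 fold changes of *etsrp*, which ran from -0.54 to 0.032 (highest without spt_cMO replicate 1), and of *lpar2a*, which ran from -0.038 to 0.12 (lowest without spt_cMO replicate 5; -0.0038 without control replicate 4). Receptors with a few counts in all cannot be compared at this depth.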

Other observations

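The genes next to *mcamb* and *s1pr1* in the order of the GRCz12tu annotation were read as a description of their surroundings. Of the 3 nearest protein-coding genes with a record on each side, 3 of 6 around *mcamb* and 1 of 6 around *s1pr1* were abundant enough to test. None of the 4 passed by edgeR, beside 1.78% of all tested records called in either direction. None had an unadjusted p under 0.05, and their log2 fold changes lay between -0.06 and 0.26. *cbl*, the neighbour of *mcamb* that encodes a ubiquitin ligase, averaged 16.8 CPM ± 3.43 in spt_cMO and 14.1 CPM ± 3.33 in control. *slc30a7*, a zinc transporter gene near *s1pr1*, averaged 156 CPM ± 14.3 in spt_cMO and 148 CPM ± 12.6 in control. The adhesion gene *vcam1b* near *s1pr1* had 7 counts in spt_cMO and 11 in control, or a mean of 0.406 CPM in spt_cMO and 0.358 CPM in control. *dph5*, directly beside *s1pr1*, was at 0 in every library.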
